A study of Mus musculus with 13 samples.

Results

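Genes that build, coat or break down triglyceride stores, or whose enzymes hydrolyse lipids outside the cell, were followed in LPS-stimulated macrophages. The macrophages were with and without a deletion in *Acly*, the gene of ATP citrate lyase. The genes were *Lpl*, *Lipg*, *Dgat1*, *Dgat2*, *Plin2*, *Pnpla2*, *Abhd5*, *Hilpda*, *Lipe* and *Mgll*, which are 10 of the 24445 gene symbols in the count table. Members were taken as named, and each was represented by its RefSeq transcript with the highest total count. They were chosen with earlier results of these data known, so their counts beside the shares of all genes are descriptive. All 10 passed the filter on low counts, among 11904 genes tested.

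Bone marrow-derived macrophages (BMDMs) of female mice were sequenced in 13 libraries, all after 100 ng/mL LPS, the outer membrane glycolipid of Gram-negative bacteria, which activates macrophages. Control cells came from Acly fl/fl mice, which carry loxP-flanked *Acly* alleles without Cre. Acly M-KO cells carry the same alleles and Cre under the *Lyz2* promoter, which is active in myeloid cells. Deletion in *Acly* and carriage of Cre thus go together, and their effects cannot be told apart here. There were 3 control and 3 Acly M-KO libraries after 3 h, and 4 control and 3 Acly M-KO libraries after 24 h. The labels number the replicates without saying whether they came from separate mice or cultures, so the p-values measure the spread between these libraries, which may be technical. Unstimulated cells were not analysed here, so each time effect is 24 h against 3 h LPS and not LPS against rest.

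Macrophages store fatty acids as triglycerides in lipid droplets. The DGAT enzymes make the triglyceride, PLIN2 coats the droplet, and adipose triglyceride lipase (encoded by *Pnpla2*) starts its breakdown, which ABHD5 stimulates and HILPDA restrains. Hormone-sensitive lipase (*Lipe*) and monoglyceride lipase (*Mgll*) take the later steps, while lipoprotein lipase (*Lpl*) and endothelial lipase (*Lipg*) are secreted and act on circulating lipoproteins. ACLY makes cytosolic acetyl-CoA, a precursor of fatty acids.

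The 12 libraries used in the fit held 21274102 to 59577343 counts. Control 24 h replicate 1 held 34467 counts and was kept out of the fit for its depth, and values with all 13 libraries are given where they bear on a result. *Acly* itself was 106 ± 1.20 CPM (counts per common library size after TMM scaling; SD, n = 3) in control and 41.8 ± 4.25 CPM (n = 3) in Acly M-KO libraries after 3 h. After 24 h it was 110 ± 2.78 CPM and 29.9 ± 0.758 CPM (n = 3 each). The loxP sites flank only part of the gene, while the counts cover the whole transcript. The *Acly* values therefore do not measure how much intact transcript remained. Of the 7 macrophage markers, *Lyz2*, the gene that carries Cre, was at 2273 to 2944 CPM in Acly M-KO against 5221 to 5268 CPM in control libraries after 3 h, and at 860 to 958 against 2359 to 2521 CPM after 24 h. The other 6 summed to 3867 to 4067 CPM in Acly M-KO and 3816 to 3981 CPM in control libraries after 3 h, and to 3484 to 3670 and 3545 to 3711 CPM after 24 h, with the genotypes overlapping at both times. Among them, *Adgre1* was at 986 to 1056 CPM in Acly M-KO and 832 to 882 CPM in control libraries after 3 h. After 24 h it overlapped, at 1371 to 1469 CPM in Acly M-KO and 1409 to 1546 CPM in control libraries. The genotypes overlapped after 3 h for *Csf1r*, at 851 to 1186 CPM in Acly M-KO and 1109 to 1162 CPM in control libraries. They also overlapped then for *Cd68*, at 1126 to 1251 and 1085 to 1208 CPM. The 5 adipocyte markers summed to at most 0.175 CPM in any of the 12 libraries, and *Plin1*, the perilipin of adipocytes, reached at most 0.0512 CPM. In these bulk samples, fewer cells of a type and less RNA per cell cannot be told apart.

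A gene was called at a Benjamini-Hochberg adjusted p under 0.05 in edgeR's quasi-likelihood test if its log2 fold change also exceeded 0.75 up or down, and a difference of genotype effects between times (interaction) at the adjusted p alone. After 3 h LPS, 2 of the 10 members were called between Acly M-KO and control cells. *Lipg* was higher, where 1.41% of all tested genes were called higher, and *Hilpda* was lower, where 0.596% were called lower. After 24 h, 1 member, *Lipg*, was called higher, against 0.899% of all genes, and 0 were called lower, against 0.479%. The adjusted p alone passed for 3 members after 3 h and 2 after 24 h, by the same edgeR test. The share of all genes passing it alone was not counted, and the shares above are for the stricter rule with the fold. The median log2 fold change of the 10 members was -0.0070 after 3 h and 0.050 after 24 h, beside -0.0051 and 0.0057 over all tested genes. The interaction was called for 1 member, *Hilpda*, with a positive sign, where 4.86% of all genes were called positive and 4.66% negative. A genotype effect was thus called for few of these genes, namely the secreted lipase *Lipg* at both times and the lipase inhibitor *Hilpda* after 3 h.

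**Figure D1:**
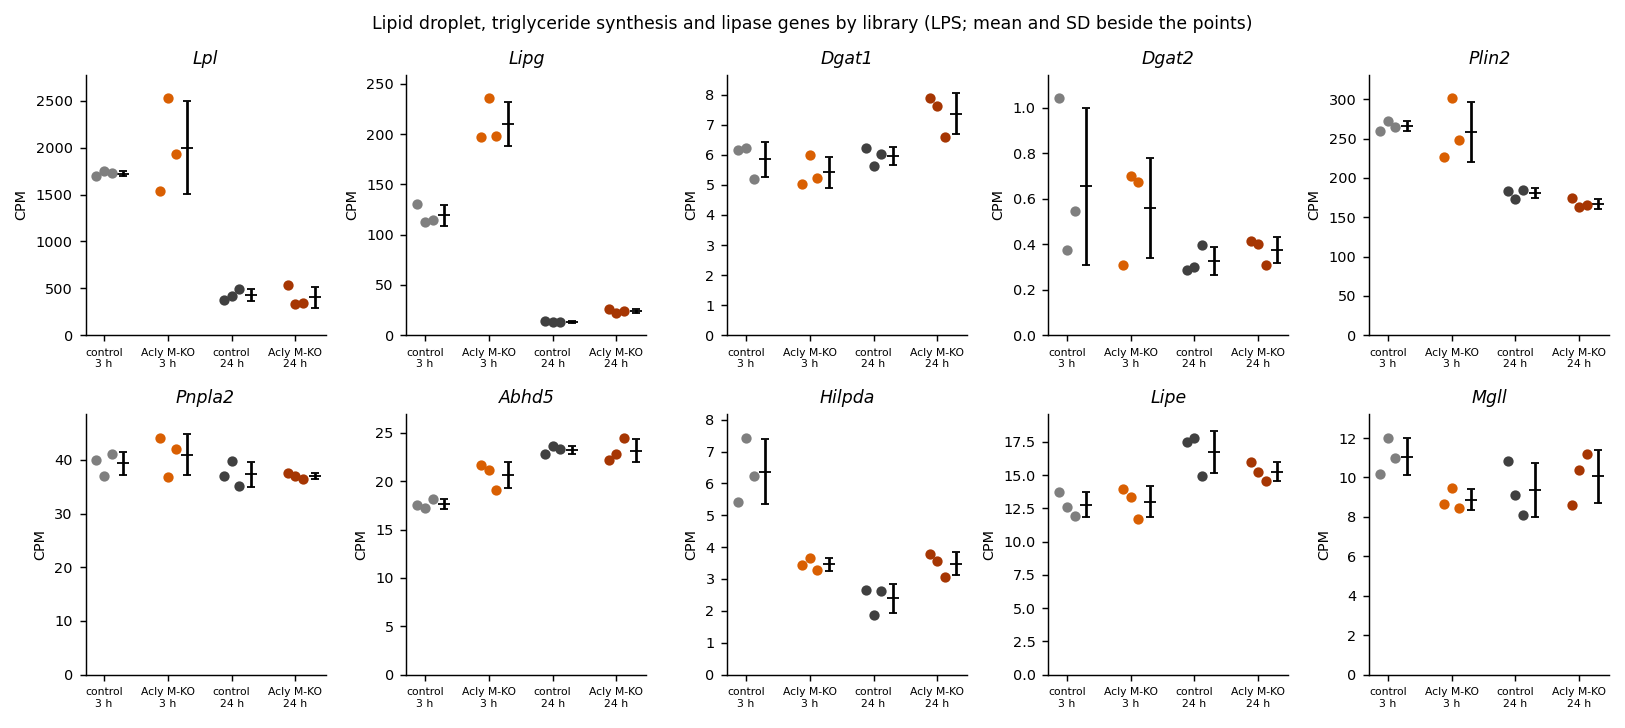
Expression of the 10 genes in each of the 12 libraries used, in CPM on linear axes that start at 0, with 1 panel per gene and 1 point per library. The bar beside the points is the mean and SD of 3 libraries. *Lipg* and *Lpl* are low in every 24 h library, *Lipg* lies higher in Acly M-KO than in control cells at both times, and *Hilpda* stands highest in the 3 h controls.

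In control cells more members were called over time than between genotypes, which also held for all tested genes. Of these, 4806 were called over time in control and 4992 in Acly M-KO cells. Between genotypes 239 were called after 3 h and 164 after 24 h. Between 3 h and 24 h LPS, 4 members were called lower in control cells (*Lipg*, *Lpl*, *Hilpda* and *Dgat2*) and 2 in Acly M-KO cells (*Lipg* and *Lpl*). The call of *Dgat2* was kept in only 3 of the 12 fits that left out 1 library. Over all genes, 19.5% were called lower and 20.9% higher in control cells, and 20% lower and 21.9% higher in Acly M-KO cells. In both genotypes 0 members were called higher. On the adjusted p alone, 8 members passed in control and 6 in Acly M-KO cells in the edgeR test. The share of all genes passing it alone was not counted, and it cannot be below the called shares. These numbers are therefore not read as a trait of the members. The median log2 fold change of the 10 members over time was -0.41 in control and -0.070 in Acly M-KO cells, beside 0.043 and 0.044 over all tested genes. The time and genotype comparisons share libraries, so their values stand side by side and were not tested against each other except through the interaction.

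The levels of different genes are compared only per kilobase of transcript, as mean CPM per kb ± SD over 3 libraries. In control cells after 3 h, *Lpl* was highest at 419 ± 6.17 CPM per kb. *Plin2* followed at 141 ± 3.43, *Lipg* at 31.5 ± 2.67 and *Pnpla2* at 14.98 ± 0.804 CPM per kb. These 4 were separated from each other by more than their SDs. *Hilpda* at 6.48 ± 1.04 and *Abhd5* at 5.59 ± 0.159 CPM per kb overlapped in their spread, as did *Lipe*, *Dgat1* and *Mgll* between 2.77 and 3.53 CPM per kb, each with the next. *Dgat2* was lowest at 0.290 ± 0.153 CPM per kb. Transcripts of *Pnpla2*, *Hilpda* and *Mgll* with the same counts differ in length, and these values use the longest. With the shortest, *Pnpla2* was at 21.9, *Mgll* at 10.7 and *Hilpda* at 9.67 CPM per kb, which moves *Mgll* from below *Dgat1* to above *Hilpda*.

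After 24 h the order in control cells was different. *Lpl* at 104 ± 14.6 and *Plin2* at 95.7 ± 3.18 CPM per kb overlapped at the top, and *Pnpla2* came next at 14.2 ± 0.873 CPM per kb. *Lipg* stood at 3.56 ± 0.240 CPM per kb, below *Abhd5* at 7.37 ± 0.126 and *Lipe* at 4.63 ± 0.443. *Dgat1*, at 3.16 ± 0.162 CPM per kb, overlapped *Lipg* in its spread. *Hilpda* at 2.43 ± 0.453 and *Mgll* at 2.34 ± 0.344 CPM per kb overlapped each other with the longest transcripts, while with the shortest they were at 3.63 and 9.04 CPM per kb, which puts *Mgll* above *Abhd5*. Whichever length was used, *Dgat2* was again lowest at 0.145 ± 0.0270. In Acly M-KO cells at 24 h, *Lipg* at 6.31 ± 0.578 CPM per kb stood above *Lipe* at 4.22 ± 0.201 and still below *Abhd5* at 7.34 ± 0.384.

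*Lipg* encodes endothelial lipase, a secreted phospholipase that acts mainly on high-density lipoprotein. The gene lies on the minus strand of GRCm38 at chr18:74939322-74961263, with 0 overlapping genes in the annotation. After 3 h LPS it was at 131, 113 and 114 CPM in control replicates 1, 2 and 3. In Acly M-KO replicates 1, 2 and 3 it was at 197, 236 and 198 CPM. All 3 Acly M-KO values exceeded the highest control. The fold was 1.76, a log2 fold change of 0.82 (SE 0.07, adjusted p = 1.99e-07 in edgeR's quasi-likelihood test). Acly M-KO 3 h replicate 2 carried part of its size: without it the log2 fold change was 0.73, still at a low adjusted p of 6.25e-12 but just under the fold threshold.

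After 24 h LPS, *Lipg* was at 14.5, 13.2 and 12.7 CPM in control replicates 2, 3 and 4, and at 26.1, 21.7 and 23.9 CPM in Acly M-KO replicates 1, 2 and 3. The groups again did not overlap. The log2 fold change was 0.84 (SE 0.09, 1.79-fold, adjusted p = 2.55e-06 in the edgeR test), and with all 13 libraries it was 0.82 (SE 0.16, adjusted p = 0.00729). The genotype effects at the 2 times differed by 0.02 (95% interval -0.22 to 0.27, adjusted p = 0.945 for the interaction, edgeR), so a difference beyond that interval was not seen. From 3 h to 24 h *Lipg* fell 8.92-fold in control cells (log2 fold change -3.16, SE 0.09, adjusted p = 3.60e-18) and 8.79-fold in Acly M-KO cells (-3.14, SE 0.08, adjusted p = 1.97e-18), by the same edgeR test. *Lipg* was thus higher in Acly M-KO cells at both times, while it fell over time in both genotypes.

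Because *Lipg* is named for endothelium, its levels stand beside those of 5 endothelial markers. Their sum was 79.6 to 83.9 CPM in control and 148 to 167 CPM in Acly M-KO libraries after 3 h, and 60.8 to 68.9 CPM and 82.3 to 92.4 CPM after 24 h. Nearly all of it was *Vwf* and *Kdr*, and *Vwf* was called higher after 3 h at a log2 fold change of 1.09 (SE 0.07, adjusted p = 8.78e-11 in the edgeR test). *Vwf* after 24 h (0.46) and *Kdr* after 3 h (0.32) and 24 h (0.40) were higher but short of the fold threshold. Over time these genes went opposite ways. *Vwf* was called lower, at -1.05 in control and -1.69 in Acly M-KO cells, and *Kdr* was called higher, at 1.01 and 1.09. *Cdh5*, *Tek* and *Emcn* were under 2 CPM in all 12 libraries. *Cdh5*, the cadherin of endothelial junctions, was at 1.09 ± 0.401 CPM in control and 1.123 ± 0.116 CPM in Acly M-KO cells after 3 h (n = 3 each), and *Emcn* was at 0 in every 3 h library. The part of endothelial RNA in the *Lipg* values was not tested beyond these levels.

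*Lpl* encodes lipoprotein lipase, which releases fatty acids from circulating triglycerides. It lies on the plus strand at chr8:68880491-68907448. Control replicates 1, 2 and 3 held 1698, 1749 and 1725 CPM after 3 h, and Acly M-KO replicates 1, 2 and 3 held 1543, 2528 and 1928 CPM. The control libraries lay within a narrow range, while the Acly M-KO libraries fell on both sides of it. The log2 fold change was 0.21 (95% interval -0.30 to 0.73, adjusted p = 0.607, edgeR), and without Acly M-KO 3 h replicate 2 it was 0.013. That replicate held the highest value of its group for 7 of the 10 members and the lowest for *Pnpla2*. It was also highest for *Cd36*, a fatty acid translocase, at 810 CPM against 492 and 628 CPM.

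After 24 h *Lpl* was at 377, 414 and 495 CPM in control replicates 2, 3 and 4 and at 536, 336 and 344 CPM in Acly M-KO replicates 1, 2 and 3. The groups overlapped, with a log2 fold change of -0.08 (95% interval -0.60 to 0.44, adjusted p = 0.864, edgeR). Acly M-KO 24 h replicate 1 held the highest value of its group for 8 of the 10 members, and without it the log2 fold change of *Lpl* was -0.33 (adjusted p = 0.401, edgeR). Over time *Lpl* fell 4.02-fold in control cells (log2 fold change -2.01, SE 0.23, adjusted p = 4.45e-05 in the edgeR test). In Acly M-KO cells it fell 4.93-fold (-2.30, SE 0.24, adjusted p = 1.73e-05). Among the 12 libraries of the fit, all 24 h values of *Lpl* lay below all 3 h values, and control 24 h replicate 1, which stands apart, is described further on.

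*Dgat1* and *Dgat2* encode the 2 enzymes of the last step of triglyceride synthesis, which are unrelated in sequence. *Dgat1* lies on the minus strand at chr15:76502015-76511953 and was the more abundant per kb in every group, at 2.87 to 3.91 CPM per kb against 0.145 to 0.290 for *Dgat2*. After 24 h, *Dgat1* was at 6.23, 5.63 and 6.02 CPM in control replicates 2, 3 and 4 and at 7.88, 7.64 and 6.60 CPM in Acly M-KO replicates 1, 2 and 3. The Acly M-KO values lay above all controls, yet the test was not passed (log2 fold change 0.30, 95% interval 0.07 to 0.54, adjusted p = 0.0773, edgeR). After 3 h the groups overlapped, with 5.19 to 6.22 CPM in control and 5.02 to 5.99 CPM in Acly M-KO cells. Over time its log2 fold change was 0.03 in control (adjusted p = 0.854) and 0.44 in Acly M-KO cells (SE 0.12, adjusted p = 0.00213, edgeR), the latter with every 24 h library above every 3 h library and yet short of the fold threshold. The interaction of *Dgat1* was 0.41 (SE 0.18, adjusted p = 0.142, edgeR) and was not called, so a difference between these time effects was not established.

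*Dgat2*, on the minus strand at chr7:99153658-99182719, was the rarest member. Control replicates 1, 2 and 3 held 1.04, 0.374 and 0.548 CPM after 3 h, and control replicates 2, 3 and 4 held 0.287, 0.298 and 0.397 CPM after 24 h. Acly M-KO replicates 1, 2 and 3 held 0.307, 0.700 and 0.673 CPM after 3 h and 0.413, 0.402 and 0.307 CPM after 24 h, and overlapped the controls at both times. Its call over time in control cells (log2 fold change -0.90, SE 0.41, adjusted p = 0.0455, edgeR) came with overlapping groups. Control 3 h replicate 1 carried it: without that library the log2 fold change was -0.39 (adjusted p = 0.464), and DESeq2 on the 12 libraries gave an adjusted p of 0.0632. Between genotypes the *Dgat2* intervals were wide, from -1.03 to 0.64 after 3 h and from -0.78 to 0.99 after 24 h on the log2 scale, so at this depth a fold past the threshold lies inside the first interval on the lower side and inside the second on both sides.

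*Plin2* encodes the perilipin that coats droplets in most cell types, macrophages included, and lies on the minus strand at chr4:86648386-86670060. It was at 260, 273 and 265 CPM in control replicates 1, 2 and 3 and at 227, 301 and 248 CPM in Acly M-KO replicates 1, 2 and 3 after 3 h. After 24 h it was at 183, 174 and 185 CPM in control replicates 2, 3 and 4 and at 174, 162 and 165 CPM in Acly M-KO replicates 1, 2 and 3. The genotypes overlapped at both times. Their log2 fold change was -0.04 (95% interval -0.19 to 0.11, adjusted p = 0.783) after 3 h and -0.11 (95% interval -0.26 to 0.04, adjusted p = 0.338) after 24 h in the edgeR test. Both intervals lie inside the fold threshold. Every 24 h library lay below every 3 h library of its genotype. The log2 fold change over time was -0.56 (SE 0.07, adjusted p = 5.77e-07) in control and -0.63 (SE 0.07, adjusted p = 9.76e-08) in Acly M-KO cells by edgeR, both short of the fold threshold.

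*Pnpla2*, the gene of adipose triglyceride lipase, was not called in any comparison. It lies on the plus strand at chr7:141455198-141460743. Over the 12 libraries it ranged from 35.2 to 44.2 CPM, and the groups overlapped in each comparison. Its genotype log2 fold change was 0.06 (95% interval -0.09 to 0.20) after 3 h and -0.0081 (95% interval -0.15 to 0.13) after 24 h, with adjusted p of 0.650 and 0.961 in the edgeR test. Over time it was -0.08 in control (adjusted p = 0.292) and -0.15 in Acly M-KO cells (adjusted p = 0.0581).

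*Abhd5* encodes the protein that activates adipose triglyceride lipase and lies on the plus strand at chr9:122351608-122381524, where the gene *A730085K08Rik* overlaps on the other strand. Control replicates 1, 2 and 3 held 17.5, 17.2 and 18.2 CPM after 3 h, and Acly M-KO replicates 1, 2 and 3 held 21.7, 21.2 and 19.1 CPM. The Acly M-KO libraries lay above all controls, with a log2 fold change of 0.23 (SE 0.08, adjusted p = 0.0451, edgeR) that did not reach the fold threshold. With all 13 libraries the adjusted p was 0.0665. After 24 h the groups overlapped at 22.8 to 23.6 CPM in control and 22.2 to 24.5 CPM in Acly M-KO cells. Over time in control cells its log2 fold change was 0.40 (SE 0.07, adjusted p = 1.95e-05 in the edgeR test), also short of the threshold. In Acly M-KO cells it was 0.16 (SE 0.07, adjusted p = 0.0456, edgeR), with every 24 h library above every 3 h library in each genotype. The interaction of *Abhd5* was -0.23 (adjusted p = 0.171, edgeR) and was not called.

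*Hilpda* encodes a small droplet protein, first known as induced by hypoxia, that inhibits adipose triglyceride lipase. It was the member whose genotype effect turned with time. It lies on the plus strand of GRCm38 at chr6:29272488-29275446 and has 2 annotated transcripts with the same counts in every library, so the 2 starts cannot be told apart in these data. Promoter windows of RefSeq's annotation of GRCm38.p6 were at hand for 6 members, namely *Plin2*, *Hilpda*, *Mgll*, *Lipe*, *Pnpla2* and *Abhd5*, and not for *Lipg*, *Lpl*, *Dgat1* and *Dgat2*. The letters ACGTG, the core of the hypoxia response element, were searched on both strands in the 250 bases before each start. They can also form part of an E-box. Of 32851 windows of all genes, 16.6% held them, and of 27025 genes with a window, 18.5% had at least 1 window that did. Of the 6 members with a window, 3 had at least 1, namely *Hilpda* (second start), *Mgll* and *Lipe*. The sequences of the inhibitor gene *Hilpda* and of *Pnpla2*, the lipase its protein inhibits, are shown because the genotype effect was called for the first and not for the second, and capitals mark the motif. The first 2 lines run 5′ to 3′ from base 250 to base 51 before the first start, at chr6:29272238-29272437 and chr7:141454938-141455137, both on the plus strand. The third is 30 bases before the second start of *Hilpda*, at chr6:29272571-29272600, with the match 43 bases before that start.
Hilpda first start: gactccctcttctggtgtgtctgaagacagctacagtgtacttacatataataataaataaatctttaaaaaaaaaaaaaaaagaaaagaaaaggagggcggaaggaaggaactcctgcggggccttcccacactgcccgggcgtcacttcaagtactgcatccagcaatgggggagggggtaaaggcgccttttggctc
Pnpla2 first start: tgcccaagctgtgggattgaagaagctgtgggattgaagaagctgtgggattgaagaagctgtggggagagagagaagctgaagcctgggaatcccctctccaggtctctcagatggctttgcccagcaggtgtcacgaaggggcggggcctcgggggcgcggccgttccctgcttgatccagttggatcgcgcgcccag
Hilpda second start: gatggccagcggACGTGccccagggcgagc
The match is a description of these letters and says nothing of what binds there.

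After 3 h LPS, *Hilpda* was at 5.41, 7.44 and 6.23 CPM in control replicates 1, 2 and 3 and at 3.43, 3.67 and 3.27 CPM in Acly M-KO replicates 1, 2 and 3. All 3 Acly M-KO values were under the lowest control. The log2 fold change was -0.88 (SE 0.16, 95% interval -1.21 to -0.55, adjusted p = 2.43e-04 in edgeR's quasi-likelihood test), a 1.84-fold lower level. Without control 3 h replicate 2, the highest control, it was -0.74 (adjusted p = 0.00562), at the edge of the fold threshold.

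After 24 h the order of the genotypes was the opposite. *Hilpda* was at 2.66, 1.88 and 2.63 CPM in control replicates 2, 3 and 4 and at 3.79, 3.58 and 3.07 CPM in Acly M-KO replicates 1, 2 and 3, and the Acly M-KO libraries lay above all of these controls. That difference was a log2 fold change of 0.51 (SE 0.16, adjusted p = 0.0348, edgeR), which was not called, and leaving out 1 library took the adjusted p as high as 0.148. The interaction was called, with a difference of effects of 1.39 (SE 0.23, 95% interval 0.92 to 1.86, adjusted p = 1.31e-04, edgeR). Left-out libraries moved it between 1.25 and 1.49.

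Set out over time, *Hilpda* fell 2.61-fold in control cells (log2 fold change -1.38, SE 0.16, adjusted p = 2.90e-09 in the edgeR test). In Acly M-KO cells its log2 fold change was 0.0073 (95% interval -0.34 to 0.35, adjusted p = 0.970). The 24 h Acly M-KO mean of 3.48 ± 0.371 CPM was that of 3 h, 3.46 ± 0.203 CPM (n = 3 each), and both lay between the control means of 6.36 ± 1.02 CPM after 3 h and 2.39 ± 0.445 CPM after 24 h.

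**Figure D2:**
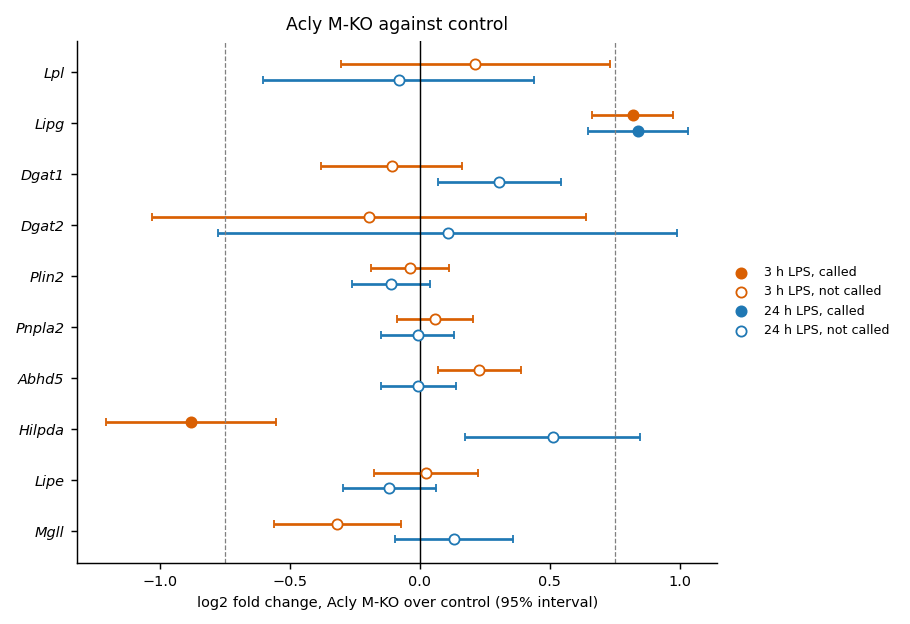
Log2 fold change of Acly M-KO over control cells for the 10 genes after 3 h and 24 h LPS, with 95% intervals from the edgeR fit of 12 libraries. Filled points are called, open points are not, and dashed lines mark the fold threshold of 0.75. *Lipg* lies at 0.82 and 0.84, and *Hilpda* at -0.88 after 3 h and 0.51 after 24 h.

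*Lipe*, the gene of hormone-sensitive lipase, lies on the minus strand at chr7:25379527-25398710, with *4732471J01Rik* on the other strand. It was at 11.9 to 13.8 CPM in control and 11.7 to 13.9 CPM in Acly M-KO cells after 3 h, and at 14.9 to 17.8 CPM and 14.5 to 15.99 CPM after 24 h. The genotypes overlapped at both times, with log2 fold changes of 0.02 (95% interval -0.18 to 0.22, adjusted p = 0.910) and -0.12 (95% interval -0.30 to 0.06, adjusted p = 0.417) in the edgeR test. Over time *Lipe* was higher in each genotype with no overlap, by 0.37 in control (SE 0.09, adjusted p = 5.56e-04) and 0.23 in Acly M-KO cells (SE 0.09, adjusted p = 0.0260) on the log2 scale, short of the fold threshold.

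*Mgll*, the gene of monoglyceride lipase, lies on the plus strand at chr6:88724412-88828360 and overlaps the predicted genes *Gm44005*, *Gm43999* and *Gm44001* on its own strand and *Gm26588* and *Gm43937* on the other. The strand setting of the counting was not given in the sources used here, so tags of *Mgll*, *Lipe* and *Abhd5* may include those of the genes that overlap them. After 3 h *Mgll* was at 10.2, 12.03 and 10.97 CPM in control and at 8.66, 9.49 and 8.46 CPM in Acly M-KO replicates 1, 2 and 3. The Acly M-KO libraries lay below all controls, but the test was not passed (log2 fold change -0.32, 95% interval -0.56 to -0.07, adjusted p = 0.0717, edgeR). After 24 h the groups overlapped at 8.11 to 10.8 CPM in control and 8.60 to 11.2 CPM in Acly M-KO cells. Over time its log2 fold change was -0.27 in control (SE 0.11, adjusted p = 0.0333, edgeR), short of the fold threshold, and 0.18 in Acly M-KO cells (adjusted p = 0.168). The interaction of *Mgll* was 0.45 (SE 0.16, adjusted p = 0.0821, edgeR), and it was called without control 24 h replicate 2 (0.56, adjusted p = 0.0349) or without Acly M-KO 24 h replicate 1 (0.55, adjusted p = 0.0381).

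Counted by separation alone, 4 of the 10 members did not overlap between the genotypes after 3 h, with *Lipg* and *Abhd5* above and *Hilpda* and *Mgll* below the controls, where 30.1% of all tested genes did not overlap in either direction. After 24 h, 3 members did not overlap, *Lipg*, *Hilpda* and *Dgat1*, all above the controls, where 33.1% of all genes did not overlap. The members' shares were near those of all genes.

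**Figure D3:**
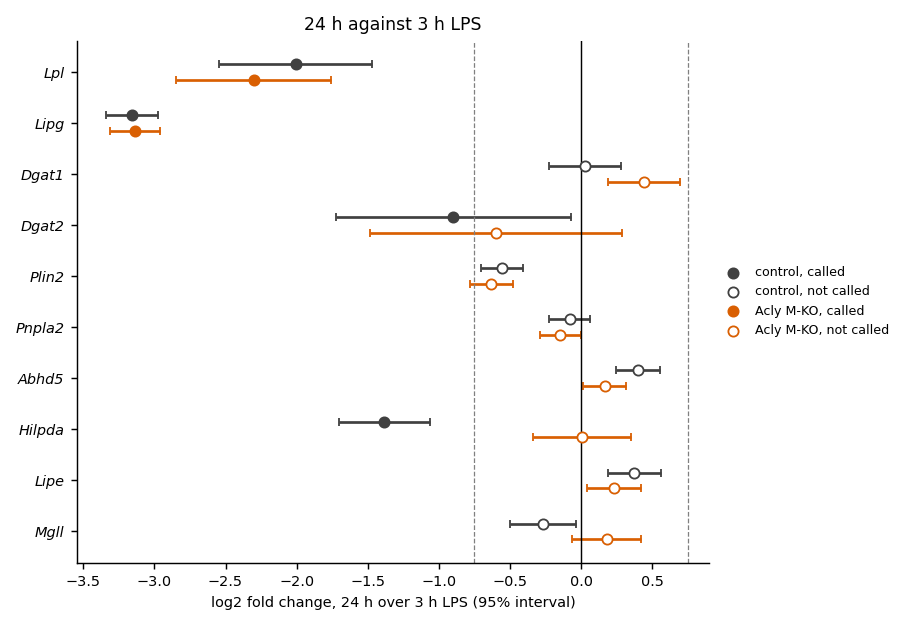
Log2 fold change from 3 h to 24 h LPS for the 10 genes in control and in Acly M-KO cells, with 95% intervals from the same fit. Filled points are called, open points are not, and dashed lines mark the fold threshold of 0.75. *Lipg* lies near -3.16 and -3.14 and *Lpl* at -2.01 and -2.30, while *Hilpda* is at -1.38 in control and 0.0073 in Acly M-KO cells.

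Control 24 h replicate 1 did not hold the secreted lipases at the level of its group. It had 8 counts of *Lipg*, which is 179 CPM with an exact Poisson 95% interval of 77.4 to 353 CPM, against 12.7 to 14.5 CPM in the other 24 h controls and 113 to 131 CPM in the 3 h controls. It had 77 counts of *Lpl*, 1725 CPM (1362 to 2156), against 377 to 495 CPM and 1698 to 1749 CPM. For both genes its interval held the 3 h controls and not the other 24 h controls. It also held the 3 *Lipg* values of the Acly M-KO cells after 3 h, 197 to 236 CPM, and 2 of their 3 *Lpl* values, 1543 and 1928 CPM. *Acly* had 1 count in this library, or 22.4 CPM (0.567 to 125), an interval that held the values of both genotypes. *Plin2*, with 7 counts or 157 CPM (63.1 to 323), had an interval that held both groups. *Pnpla2* had 3 counts, and the other 6 members had 0, for which the floor of 3 counts stands at 67.2 CPM and the exact Poisson upper limit at 82.7 CPM, both above every level they reached elsewhere. The intervals cover counting error only. With this library in the fit, the members called in each of the 5 comparisons were of the same number, and the time effect in control cells was -3.14 for *Lipg* and -1.91 for *Lpl*.

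**Figure D4:**
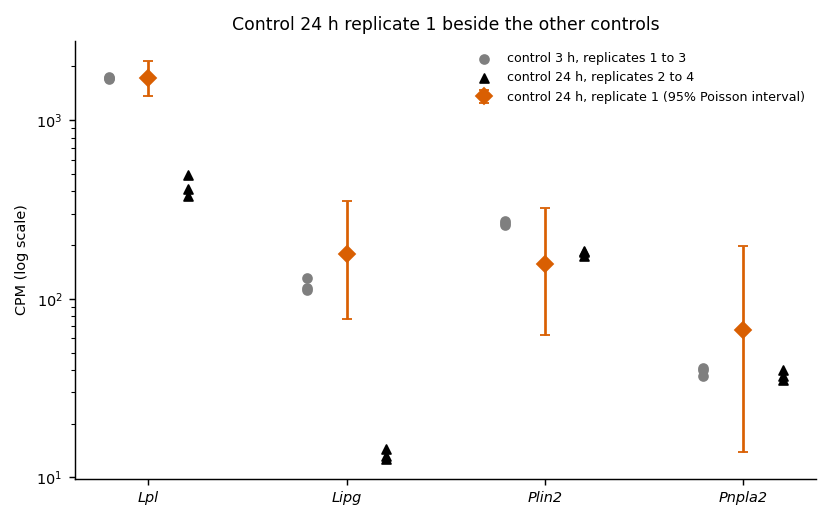
Levels of the 4 genes with counts in control 24 h replicate 1 (diamonds, exact Poisson 95% interval) beside the 3 h controls (circles) and the other 24 h controls (triangles), in CPM on a log axis. For *Lpl* and *Lipg* the diamond lies with the 3 h controls, at 1725 and 179 CPM.

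Beyond the 10 members, 66 genes of 4 neighbouring lists were examined, of which 45 passed the filter. After 3 h LPS, 2 were called higher in Acly M-KO cells and 0 lower, and after 24 h 0 were called either way by the edgeR test. Among genes called between genotypes or in the interaction, *Acsl3*, *Acsl4*, *Dbi*, *Fabp5* and *Nceh1* passed only the adjusted p after 24 h. After 3 h *Acbd3* did so, at a log2 fold change of -0.25 (adjusted p = 0.00477, edgeR). The other neighbouring genes were not listed by the adjusted p alone. Over all tested genes, 1.41% were called higher and 0.596% lower after 3 h, and 0.899% and 0.479% after 24 h. The median log2 fold change of the 45 was 0.060 after 3 h and 0.027 after 24 h, beside -0.0051 and 0.0057 over all genes. Both called genes belong to glycerolipid synthesis, of which 13 of 18 genes were tested. *Lpin1*, whose protein makes diacylglycerol from phosphatidic acid, was at 2.04, 1.73 and 1.15 CPM in control and 3.48, 2.755 and 2.5 CPM in Acly M-KO libraries, a log2 fold change of 0.82 (SE 0.23, adjusted p = 0.0129, edgeR). *Acsl3*, a fatty acyl-CoA synthetase found on nascent droplets, was at 5.41, 3.51 and 4.74 CPM against 6.51, 9.05 and 7.45 CPM, a log2 fold change of 0.76 (SE 0.14, adjusted p = 3.27e-04, edgeR), just past the threshold.

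For *Acsl3* the genotypes stood the other way after 24 h, at 25.1 to 25.6 CPM in control and 14.2 to 17.1 CPM in Acly M-KO cells, with a log2 fold change of -0.69 (SE 0.10, adjusted p = 8.34e-06, edgeR). Its interaction was -1.45 (SE 0.17, adjusted p = 9.58e-07), opposite in sign to that of *Hilpda*. In the same list, *Acsl4* (-0.42, adjusted p = 2.85e-04) and *Agpat3* (-0.31, adjusted p = 0.0455), an acyltransferase of glycerolipid synthesis, also had negative interactions in the edgeR test. Among 8 tested genes of fatty acid uptake and binding, the interaction was negative for *Dbi*, an acyl-CoA binding protein (-0.65, adjusted p = 5.46e-04), and for *Fabp5*, a fatty acid binding protein (-0.38, adjusted p = 0.00112), and positive for *Acbd3* (0.34, adjusted p = 0.00812). Among 16 tested lipases and lipase regulators, it was positive for *Nceh1*, a cholesteryl ester hydrolase of macrophages (0.25, adjusted p = 0.0159), and negative for 0. Of the 8 tested droplet coat and assembly genes, 0 were called between the genotypes at either time or in the interaction. Over all 45 tested neighbouring genes, the interaction was called positive for 2 and negative for 5. Of all tested genes, 4.86% were called positive and 4.66% negative. At such shares, and those of the genotype calls given above, 0 of 8 says little about this list.

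Over time, 9 of the 45 neighbouring genes were called higher and 10 lower in control cells, and 6 higher and 10 lower in Acly M-KO cells, with medians of 0.088 and -0.038 beside 0.043 and 0.044 over all genes. These counts of 45 are to be read against the 20.9% higher and 19.5% lower of all genes in control cells, and 21.9% and 20% in Acly M-KO cells, given above. The droplet proteins *Plin1*, *Plin4*, *Plin5*, *Cidea* and *Cidec* and the lipase inhibitor *G0s2* did not pass the filter. *G0s2*, which like *Hilpda* encodes an inhibitor of adipose triglyceride lipase, reached at most 0.140 CPM. The other perilipin above the filter, *Plin3*, was at 34.5 ± 1.59 and 39.9 ± 0.973 CPM in control and Acly M-KO cells after 3 h (n = 3 each). After 24 h the genotypes overlapped, at 38.9 to 40.8 CPM in control and 40.2 to 43.8 CPM in Acly M-KO cells. *Plin3* was not called between the genotypes at either time.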

How the data were processed

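RNA-seq of BMDMs grown for 7 days in medium with 15% conditioned medium was analysed in 13 libraries. Libraries were strand-specific; the authors mapped reads with STAR 2.5.2b (mm10) and used HOMER to add up tags over each RefSeq transcript. What they deposited are unnormalized counts for 35745 transcripts, of which 35628 were matched to a symbol; the rest held 1.13% of the counts and stayed in the library sizes. Samples were grouped by their titles. Counts were tested with edgeR 4.0.16 (R 4.3.3, limma 3.58.1): TMM normalization, filterByExpr on the 4 groups (19621 transcripts left), robust quasi-likelihood fit of the 12 libraries with at least 1000000 counts, and Benjamini-Hochberg adjustment over all transcripts. One count was worth 0.0153 to 0.0512 CPM in these libraries. Standard errors are the log2 fold change over the root of F, and 95% intervals use the t quantile at the fit's degrees of freedom. Lengths and positions are from GENCODE's annotation of GRCm38. Scripts were tested on simulated data. The 10 members and the neighbouring lists were chosen with earlier results of these data known. All 10 members, *Acly*, and the neighbouring genes called between genotypes or in the interaction (up to 3 per list and direction) were named; *Plin1*, *Plin3*, *Cd36*, *G0s2* and the cell markers fall outside this rule and were picked with values known. Alternatives were DESeq2 1.42.0, other normalizations, filters and thresholds, all 13 libraries, a replicate block and leaving out each library. Same-numbered libraries deviated from their group means with correlations of -0.0305 to 0.0583, so the numbers were not treated as pairs. Pairing of libraries other than by these numbers was not tested, and this check cannot exclude it.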

Additional observations from a re-analysis of the deposited data

Results flagged for a closer look

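Among the 4 controls after 24 h LPS, replicate 1, with 34467 counts, lay far from the others for 6 members, by Dixon's criterion at the 95% level. Chance alone meets it in about 1 in 20 groups of equal spread, a rate that does not apply to a library of this depth. Replicate 1 was high for *Lipg* at 179 CPM, for *Lpl* at 1725 CPM and for *Pnpla2* at 67.2 CPM, and it was at 0 for *Dgat1*, *Lipe* and *Abhd5*. At 22.4 CPM per count, the values of *Pnpla2* and the zeros lie within its counting error, and those of *Lipg* and *Lpl* do not. A cause was not tested.

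The effect of genotype differed between 3 h and 24 h LPS, by the interaction in edgeR's quasi-likelihood test, for *Hilpda* at 1.39 on the log2 scale (adjusted p = 1.31e-04). It also differed for the deleted gene *Acly* at -0.54 (adjusted p = 9.29e-05). Among the neighbouring genes it was -1.45 for *Acsl3*, -0.42 for *Acsl4*, -0.31 for *Agpat3*, -0.65 for *Dbi*, -0.38 for *Fabp5*, 0.34 for *Acbd3* and 0.25 for *Nceh1*.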

How the results depend on the processing

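With 3 libraries per group, the calls that passed by little were the ones that moved. A log2 fold threshold of 1 gave 0 members called between genotypes at either time, and the adjusted p alone gave 2 after 24 h, 8 over time in control and 6 over time in Acly M-KO cells. The shares of all genes at these other thresholds were not counted. Leaving out 1 library gave 1 to 2 members called after 3 h (1 without control 3 h replicate 2 or Acly M-KO 3 h replicate 2) and 1 to 2 for the interaction (2 without control 24 h replicate 2 or Acly M-KO 24 h replicate 1). The call of *Dgat2* over time in control cells was lost under upper-quartile normalization, DESeq2, no filter and the replicate block, and *Dgat2* did not pass a filter of 10 counts. It was kept in 3 of the 12 fits that left out 1 library, with log2 fold changes of -1.18 to -0.39. The replicate block gave 2, 1, 1, 3 and 2 members called after 3 h, after 24 h, in the interaction, and over time in control and Acly M-KO cells; the libraries share only a number. Upper-quartile normalization moved the median of all genes over time by 0.12 in control and 0.10 in Acly M-KO cells on the log2 scale, and the members' values over time move with it. Signs turned only for differences that had not been called. Among these, *Hilpda* over time in Acly M-KO cells was -0.023 with DESeq2's size factors, -0.022 with DESeq2, -0.0093 with 1 transcript per symbol and -0.00083 with the libraries of that comparison only. *Pnpla2* over time in control cells was 0.036 under upper-quartile normalization, *Lpl* after 24 h was 0.011 with the replicate block, and the *Lipg* interaction was -0.0074 without the filter and -0.057 with the block. Leaving out 1 library moved values across 0 as follows: *Dgat2* after 3 h -0.48 to 0.31 and in the interaction -0.21 to 0.58, *Plin2* after 3 h -0.16 to 0.051 and in the interaction -0.17 to 0.033, *Lipg* in the interaction -0.067 to 0.099, *Lipe* after 3 h -0.024 to 0.093, *Dgat1* over time in control cells -0.044 to 0.083, *Hilpda* over time in Acly M-KO cells -0.059 to 0.090, and after 24 h *Pnpla2* -0.055 to 0.037, *Abhd5* -0.051 to 0.025 and *Lpl* -0.33 to 0.037. The causes were not tested.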
